A study of Mus musculus with 2 samples.

Results

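The set described here comprised 6 neuropeptide genes, Gal, Nts, Cck, Cartpt, Sst and Npy, and 1 receptor gene, Sstr2, chosen by name from the 31053 genes counted in each library. All 7 were found once in the gene list. They were followed through the neurogenic, neuronal, retinal pigment epithelium (RPE) and melanocyte classes of the embryonic mouse eye cup, and through the other classes of that tissue where they were counted.

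Neuropeptides are made as larger precursors, cut by prohormone convertases in the secretory pathway and stored in dense-core granules until the cell is stimulated. They act on G protein-coupled receptors of nearby cells, and the same peptide can serve as a transmitter in neurons and as a local signal elsewhere. In the retina the peptides are best known from amacrine and ganglion cells.

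Single-cell RNA-seq was carried out on dissociated eye cups at e15.5. The control library was Myrf fl/fl and the mutant library was Rx>cre Myrf fl/fl, so both groups carried the floxed Myrf alleles and the mutant also carried the Cre transgene. Myrf encodes the transcription factor MYRF, and Rx>cre acts in the early eye field, from which both the neural retina and the RPE arise. Neural crest and blood cells of the eye cup come from outside that field. Each library was prepared from 3 pooled eye cups whose cornea, lens and optic nerve had been taken away, and the embryos in a pool could not be separated. With 1 library per genotype, no test between genotypes was possible, and each difference below is one between libraries without a replicate check.

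The control library had 13017 barcodes with a median of 9339 transcripts and the mutant library 13880 with a median of 8702, transcripts being counted by their unique molecular identifiers (UMIs). After filtering, 11573 control and 12623 mutant cells remained, and 69 cell barcodes occurred in both libraries. Clusters were named by marker genes and are written as "-like", and 23.0% of control and 22.4% of mutant cells, most of them shallow, stayed unnamed. Myrf itself was at 77.8 CPM (UMIs of a gene per 1000000 UMIs of its class) in control RPE-like cells (293 UMIs) and at 30.2 CPM in mutant RPE-like cells (57 UMIs), a log2 ratio of -1.36 (95% interval -1.80 to -0.95). Y-linked UMIs were seen in 0.0259% of control and 41.8% of mutant cells, so the pools also differed in the sex of their embryos. The part of sex in the differences below cannot be told apart from that of genotype. All intervals here cover counting error only, and they are too narrow for a gene whose UMIs come mostly from a small number of cells.

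**Figure D1:**
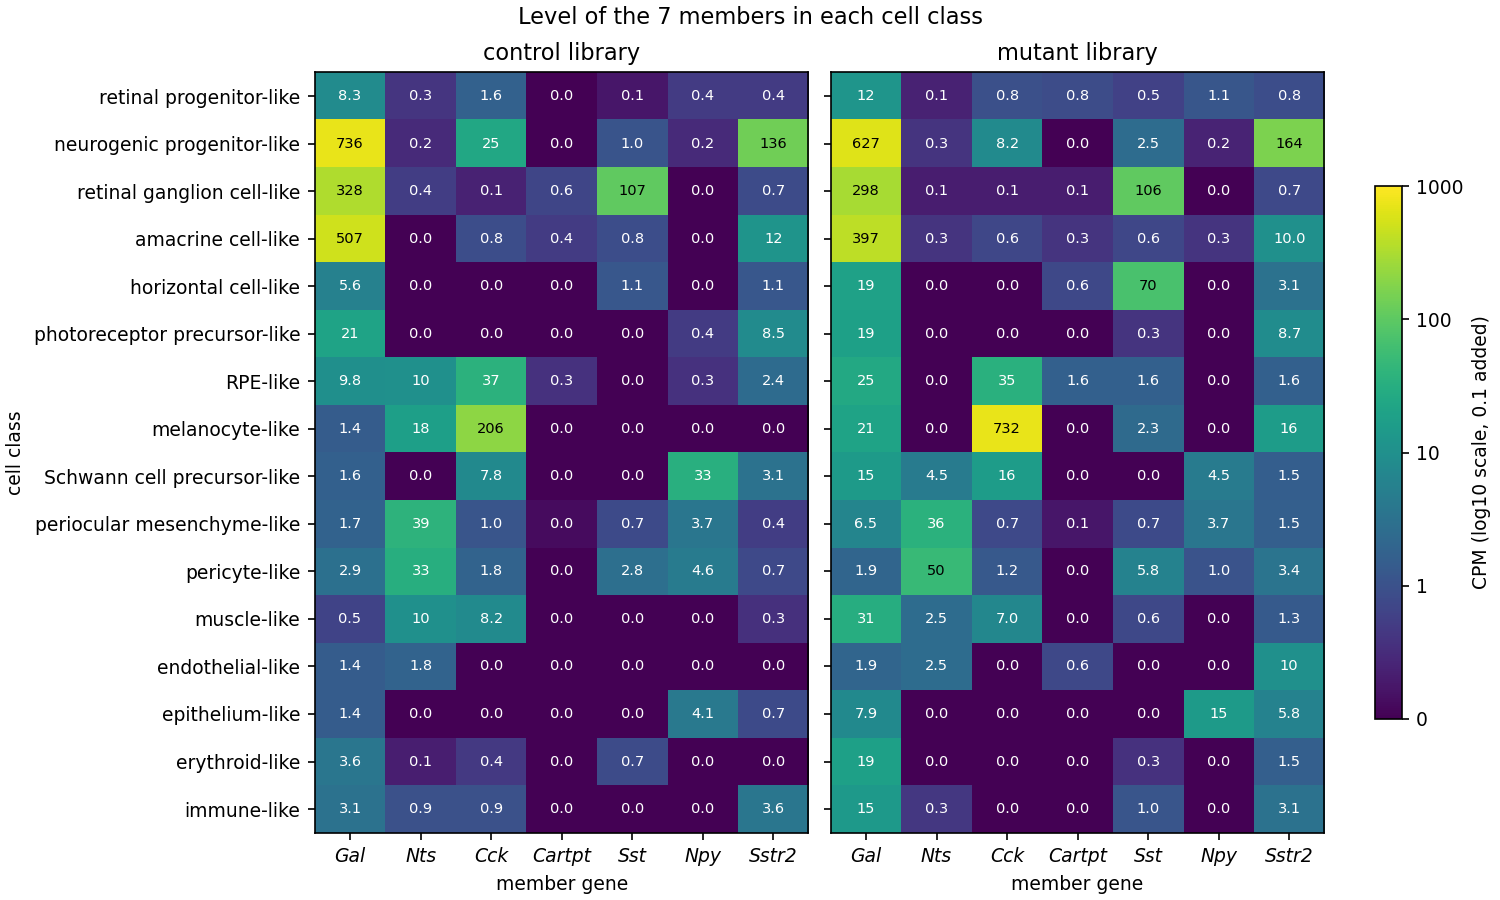
CPM of each of the 7 genes (columns) in each named cell class (rows), for the control and the mutant library side by side, on a log colour scale with 0.1 CPM added and the CPM printed in each field. Gal spans the neurogenic, amacrine and ganglion cell-like classes, whereas Sstr2 stands out in the neurogenic class and Cck in the melanocyte class of both libraries, and Cartpt is near 0 in every named class.

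The 7 genes were counted in largely separate places. With the UMIs of both libraries pooled, each member was highest in another class, apart from Gal and Sstr2, which shared the neurogenic progenitor-like class. These are the Atoh7-expressing cells that are leaving the cell cycle to become neurons. There Gal reached 736 CPM in the control and Sstr2 136 CPM. Sst was highest in retinal ganglion cell-like cells and Cck in melanocyte-like cells. Nts was counted in mesenchyme-like and pericyte-like cells outside the retina. Npy was low everywhere, with 62.6% of its control UMIs and 48.7% of its mutant UMIs in mesenchyme-like cells. Its highest level was in Schwann cell precursor-like cells in the control and in epithelium-like cells in the mutant. Cartpt was nearly absent from the named classes and was counted in a small unnamed cluster led by Pax2 and Zic1.

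Galanin, the peptide encoded by Gal (chr19:3409915-3414544 on the minus strand of GRCm38), was by far the most abundant member, with 95.5 CPM over all kept control cells and 110 CPM over all kept mutant cells. In neurogenic progenitor-like cells it gave 7283 UMIs in 1037 control cells, or 736 CPM (719 to 753). For the mutant the count was 8308 UMIs in 1380 cells, or 627 CPM (614 to 641). This gave a log2 ratio of -0.23 (-0.28 to -0.19), and the share of cells with a Gal UMI was the same in both libraries, at 26.1% (23.5 to 28.9) and 26.1% (23.8 to 28.5). This class held 63.0% of all control Gal UMIs in 8.96% of the cells, and 60.5% of all mutant Gal UMIs in 10.9% of the cells. Gal was thus a gene of a minority of these cells, but of many UMIs per positive cell. The median positive cell had 11 UMIs (control) and 6 (mutant), and the richest had 303 and 263.

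Retinal ganglion cells, the first neurons of the retina and the source of the optic nerve, had Gal in most cells and at lower counts per cell. The class gave 328 CPM (315 to 342) in 415 control cells and 298 CPM (287 to 310) in 521 mutant cells, with a UMI in 61.9% and 63.1% of cells. The log2 ratio was -0.14 (-0.22 to -0.06). Amacrine cell-like cells, the retinal interneurons, gave 507 CPM (479 to 535) in 319 control cells and 397 CPM (376 to 419) in 422 mutant cells, a log2 ratio of -0.35 (-0.46 to -0.24). Here 24.1% and 22.3% of cells had a UMI, and the 5 richest cells held 50.4% of the control and 37.1% of the mutant UMIs. The richest amacrine-like cell of the control had 231 Gal UMIs, with amacrine markers at 6.77 per 10000 UMIs against a class median of 23.0 and neurogenic markers at 86.1 against a class median of 13.7. Per UMI counted, Gal was below the control in the mutant in all 3 classes, while the shares of cells with Gal were close. The direction depended on which cells were counted. With doublets kept the neurogenic log2 ratio was 0.013, but the cluster richest in Gal was then named ganglion cell-like and had left the class, and Gal was highest in ganglion cell-like cells, with a log2 ratio of -0.29. Without cells over 20000 UMIs the ganglion cell-like one was 0.0053. The amacrine-like one was 0.50 with classes assigned cell by cell, -0.02 without the 5 richest cells and 0.023 as a mean over cells.

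In order to compare shares at equal depth, each cell was thinned to 2000 UMIs and cells below that depth were left out. Gal was then seen in 20.2% (17.6 to 22.9) of 907 control and 18.4% (16.3 to 20.7) of 1253 mutant neurogenic progenitor-like cells. In ganglion cell-like cells the shares were 32.9% and 32.6%, and in amacrine cell-like cells 49 of 311 and 64 of 413 cells were positive. The background was read from erythroid-like cells, which should lack galanin. Here 0.83% of 483 control and 1.18% of 424 mutant cells had a Gal UMI after thinning. The unthinned shares there were 2.96% and 3.83%, at median depths of 17037 and 16899 UMIs, and mesenchyme-like cells had 0.20% and 0.85% after thinning. All of the neuronal and neurogenic shares named were above these values.

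Outside the neural retina Gal was low but not equal in the libraries. Over the 10 classes from RPE-like to immune-like cells it gave 2.50 CPM in 4381 control cells and 10.8 CPM in 3381 mutant cells, and it was higher in the mutant in 9 of the 10. Cells with 10 or more Gal UMIs numbered 2 in control and 11 in mutant cells. In RPE-like cells 17 of 37 control UMIs and 42 of 48 mutant UMIs lay in 1 cell each. These cells had neurogenic markers at 55.6 and 48.2 per 10000 UMIs, where the RPE-like median was 0. In erythroid-like cells of the mutant, 76 of 136 Gal UMIs lay in 1 cell with neurogenic markers at 53.4 per 10000 UMIs against a class median of 0. Sstr2 too was higher in the mutant over these classes, with 0.63 and 2.33 CPM. The part of doublets and of free RNA in these values was not tested, and no Gal level is read from these classes.

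**Figure D2:**
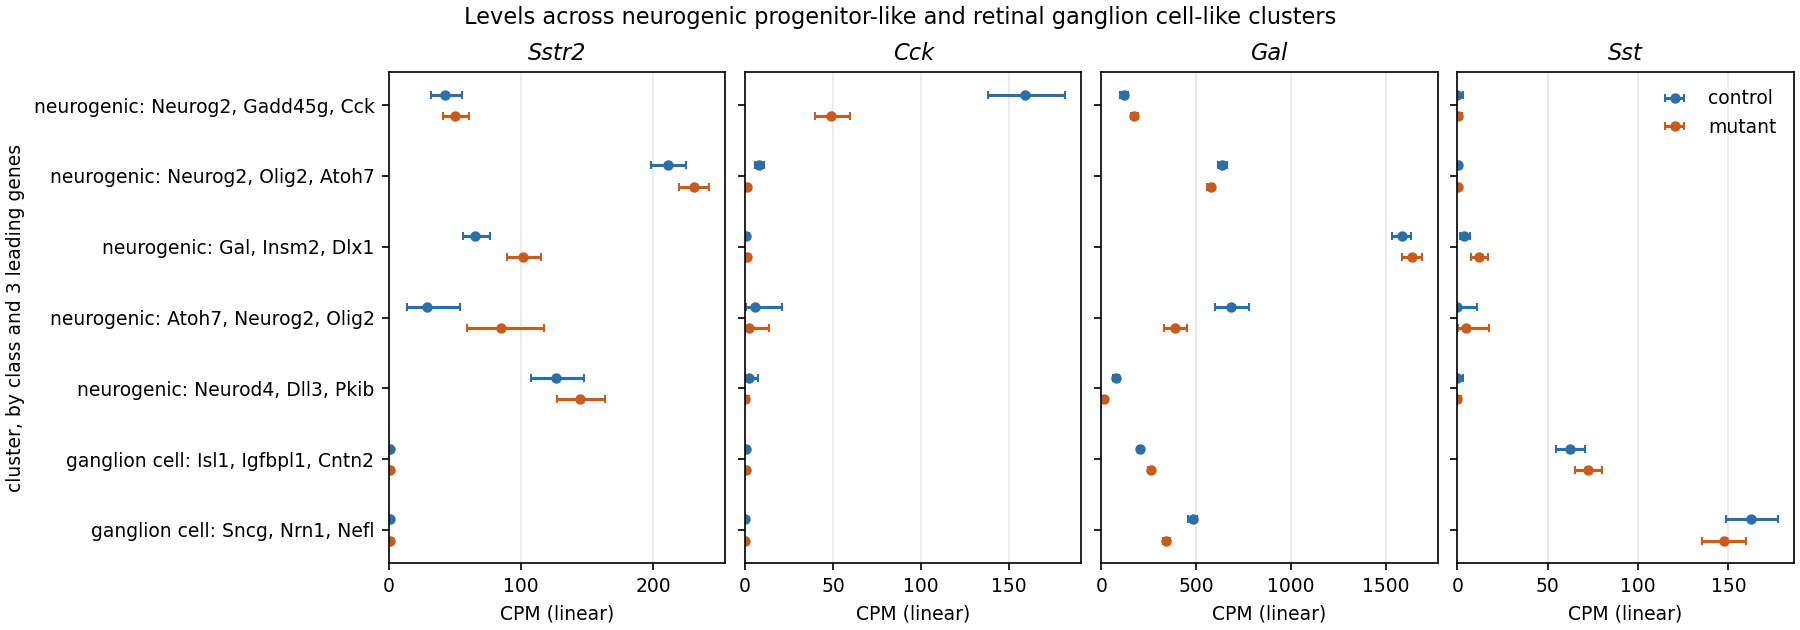
CPM (linear axis) of Sstr2, Cck, Gal and Sst in the 5 neurogenic progenitor-like and 2 ganglion cell-like clusters, 1 point per library, with exact 95% Poisson intervals for counting error. The Gal points peak in the cluster led by Gal, Insm2 and Dlx1, the Sstr2 points in the cluster led by Neurog2 and Olig2, and the Cck points in the cluster led by Neurog2, Gadd45g and Cck.

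Within the neurogenic class, the 5 clusters divided Gal, Sstr2 and Cck among them. Members had been kept out of the genes used for clustering, although genes that vary with them had not. The cluster led by Gal, Insm2 and Dlx1, with Pou4f2 among its leading genes, had 1586 CPM (1537 to 1637) of Gal in 228 control cells and 1639 CPM (1588 to 1691) in 236 mutant cells. Gal was present in 61.4% and 64.4% of its cells, and the log2 ratio was 0.05 (-0.02 to 0.11). In the cluster led by Neurog2 and Olig2 it was at 637 CPM in control and 578 CPM in mutant cells, a log2 ratio of -0.14. The Gal-richest cluster made up 22.0% of the control class and 17.1% of the mutant class. Neither the part of this smaller share in the lower Gal of the mutant class nor its cause was tested.

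The ganglion cell-like clusters moved in opposite directions. The cluster led by Sncg, Nrn1 and Nefl, genes of growing axons, had Gal at 482 CPM (458 to 508) in 177 control cells and 343 CPM (325 to 362) in 215 mutant cells. In the cluster led by Isl1 and Igfbpl1, genes of newborn ganglion cells, it was at 205 CPM (191 to 220) in 238 control cells and 262 CPM (248 to 277) in 306 mutant cells. The log2 ratios were -0.49 and 0.35. The shares of cells with a UMI, 75.7% and 78.6% in the first and 51.7% and 52.3% in the second, differed little between libraries.

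Gal-positive neurogenic cells carried a particular set of fate genes in both libraries, after thinning to 2000 UMIs. Atoh7, the factor that makes progenitors competent to form ganglion cells, was seen in 99.5% of 183 Gal-positive control cells and in 92.5% of the 724 others. Pou4f2, a ganglion cell factor downstream of Atoh7, was seen in 31.1% (24.5 to 38.4) of the positive and 7.18% (5.41 to 9.31) of the other control cells, and in 23.4% and 4.89% in the mutant. Isl1, which acts with Pou4f2, was at 34.4% against 10.5% in control and 26.4% against 6.85% in mutant cells. Genes of other fates went the other way. Neurod1, a factor of photoreceptor and amacrine precursors, was in 3.83% of Gal-positive and 54.3% of other control cells, and in 9.96% and 57.9% of mutant cells. Otx2, needed for the photoreceptor fate, was in 9.29% against 46.0% in control and 8.23% against 47.7% in mutant cells. Neurog2, a proneural factor, was in 10.9% against 58.8% in control and 17.7% against 61.7% in mutant cells. The same direction was therefore counted in both libraries for each of these 6 genes.

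Gal-positive cells of the amacrine-like class also kept Atoh7. It was seen in 65.3% (50.4 to 78.3) of 49 positive control cells against 23.7% (18.7 to 29.3) of the 262 others, and in 65.6% against 22.1% in the mutant. Tfap2b, an AP-2 factor of postmitotic amacrine cells, was seen in 18.4% against 52.7% in control and 14.1% against 57.9% in mutant cells. Ptf1a, required for the amacrine and horizontal fates, was at 73.5% against 77.1% and 76.6% against 75.4%, with intervals that overlapped. In ganglion cell-like cells the order was reversed for Atoh7, with 36.3% of 135 positive against 58.2% of 275 other control cells and 39.6% against 58.9% in the mutant. Pou4f1, a factor of the same family as Pou4f2 that appears later, was at 40.0% against 26.5% in control and 42.0% against 26.9% in mutant cells.

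**Figure D3:**
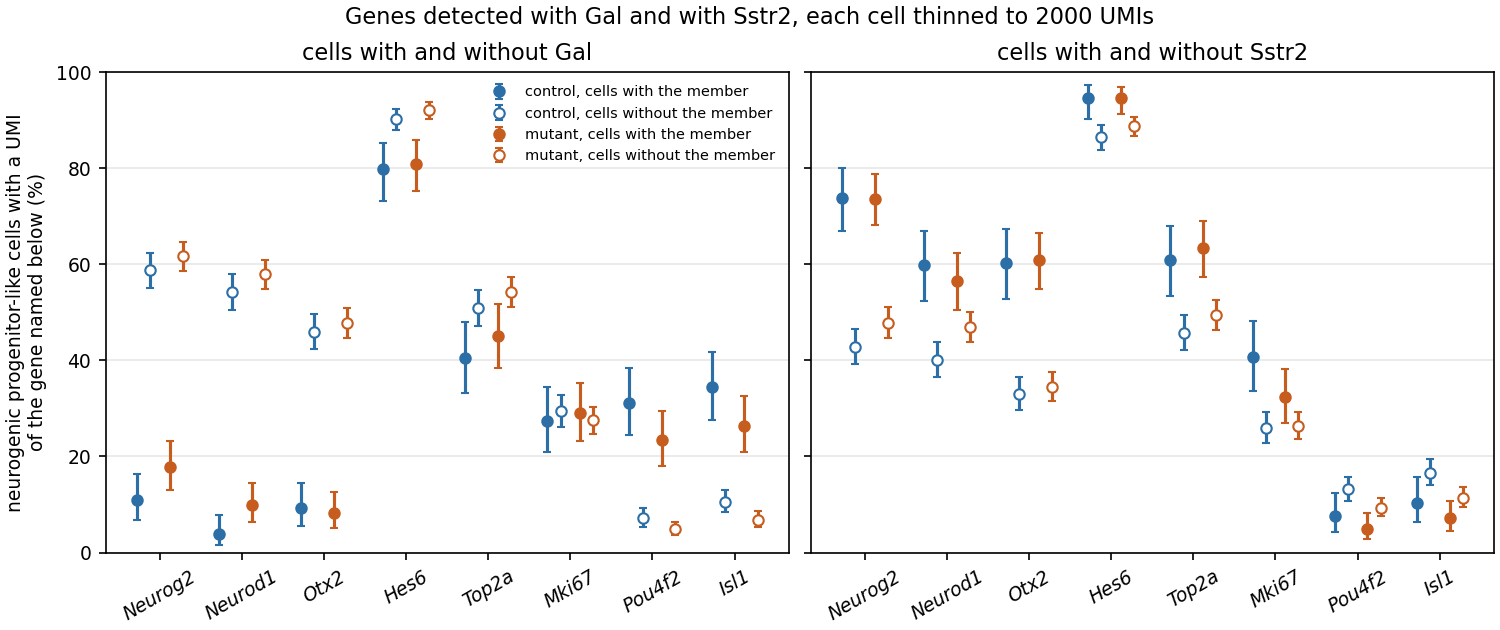
Percent of neurogenic progenitor-like cells with a UMI of each fate or cycle gene after thinning to 2000 UMIs, for cells with Gal or Sstr2 (filled points) and without it (open points) in each library, with exact 95% intervals for counting error. Gal-positive neurogenic cells lie high for Pou4f2 and Isl1 and low for Neurog2, Neurod1 and Otx2, and Sstr2-positive cells lie high for Neurog2 and Otx2.

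The receptor gene Sstr2 (chr11:113619342-113626028, plus strand) encodes a Gi-coupled somatostatin receptor. In neurogenic progenitor-like cells it gave 1347 UMIs in the control, or 136 CPM (129 to 144), and 2169 UMIs in the mutant, or 164 CPM (157 to 171). The log2 ratio was 0.27 (0.17 to 0.37), and 41.0% (38.0 to 44.1) of control and 46.4% (43.7 to 49.1) of mutant cells had a UMI. The class held 92.3% of all control and 89.7% of all mutant Sstr2 UMIs. Its counts were spread over many cells, with a median of 2 UMIs per positive cell in both libraries and 6.01% and 3.41% of UMIs in the 5 richest cells. Among cells of at most 2000 UMIs alone the log2 ratio was -0.16.

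Other neural classes had far less Sstr2. Amacrine cell-like cells were at 11.8 and 9.99 CPM, photoreceptor precursor-like cells at 8.48 and 8.73 CPM, and ganglion cell-like cells at 0.72 and 0.67 CPM, on 5 and 6 UMIs. After thinning, 20.3% of control and 22.4% of mutant neurogenic progenitor-like cells had Sstr2. In erythroid-like cells 0 of 483 control cells had it, which allows a share of up to 0.62%, and 1 of 424 mutant cells. Sstr2 overlaps Slc39a11 on the opposite strand, and the strand setting of the counting is not given in the sources used here. Slc39a11, a zinc transporter gene, was at 15.6 and 15.2 CPM in the neurogenic class, 7.09 and 6.72 CPM in ganglion cell-like cells and 7.07 and 8.44 CPM in mesenchyme-like cells. Whether its reads were counted for Sstr2 was not tested.

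Among the neurogenic clusters Sstr2 was highest in the one led by Neurog2 and Olig2, with 211 CPM (198 to 225) in the control and 231 CPM (219 to 242) in the mutant, and UMIs in 68.4% and 69.3% of cells. The cluster led by Neurod4 and Dll3 was at 126 and 144 CPM, with overlapping intervals. In the Gal-richest cluster it was at 65.3 CPM (55.6 to 76.3) in the control and 101 CPM (89.0 to 115) in the mutant, a log2 ratio of 0.63. Sstr2-positive cells held Neurog2 in 73.9% against 42.9% of the others in the control and 73.7% against 47.8% in the mutant. Otx2 was in 60.3% against 33.1% and in 60.9% against 34.6%. Top2a, a gene of cycling cells, was in 60.9% against 45.8% and in 63.3% against 49.5%. Neurod1 was in 59.8% against 40.1% and in 56.6% against 46.9%. Neurog2, Otx2 and Neurod1, which were low in Gal-positive cells, were thus high in Sstr2-positive cells.

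Sstr2 was seen less often in Gal-positive cells than in the class in the control, and within counting error of the class in the mutant. After thinning, 22 control cells had both, or 12% (7.69 to 17.6) of the 183 Gal-positive cells, whereas 20.3% of the class had Sstr2. In the mutant 40 cells had both, or 17.3% (12.7 to 22.8) of the 231 Gal-positive cells, where the class had 22.4%. Seen from Sstr2, 12% of its 184 control cells and 14.2% of its 281 mutant cells had Gal.

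Somatostatin, the ligand of that receptor, is encoded by Sst (chr16:23889573-23890958, minus strand). In ganglion cell-like cells Sst gave 737 UMIs in the control, or 107 CPM (99.1 to 115), and 944 UMIs in the mutant, or 106 CPM (99.0 to 113). A UMI was present in 13.7% (10.6 to 17.4) of control and 14.4% (11.5 to 17.7) of mutant cells, and the log2 ratio was -0.01 (-0.15 to 0.13). The libraries were thus alike within counting error in this class, which held 89.7% of control and 79.6% of mutant Sst UMIs. The levels rested on few cells, since the 5 richest held 41.5% of the control and 37.1% of the mutant UMIs and the richest mutant cell had 159. After thinning, 6.59% and 7.71% of cells had Sst, against 1 of 483 and 1 of 424 erythroid-like cells.

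The cluster of maturing ganglion cells was above the younger one in both libraries, at 162 CPM (148 to 177) against 62.3 CPM (54.7 to 70.7) in the control and 147 CPM (136 to 160) against 72.4 CPM (65.1 to 80.2) in the mutant. Of the 27 Sst-positive control cells 11 also had Gal after thinning, and of the 40 mutant cells 19. This is 40.7% (22.4 to 61.2) and 47.5% (31.5 to 63.9) of them, and the 32.9% and 32.6% of the whole class that had Gal lie within these intervals. The shared cells were 8.15% and 11.2% of the Gal-positive ganglion cell-like cells. Onecut2, a factor of ganglion and horizontal cells, and Slc17a6, the vesicular glutamate transporter, were more often seen in Sst-positive than in other cells of the control, and not of the mutant, a difference that was not tested. Onecut2 was at 40.7% against 20.1% in control and 20% against 21.3% in mutant cells, and Slc17a6 at 29.6% against 8.88% and 10% against 10.9%, and the 95% intervals of the 27 and 40 Sst-positive cells overlapped. Horizontal cell-like cells had 1 Sst UMI (control) and 111 (mutant), but 74 and 35 of those 111 lay in single cells. The richer of them had horizontal cell markers at 1.27 per 10000 UMIs against a class median of 5.91. Its ganglion cell markers were at 8.89, against 5.95 in its class and 129 in ganglion cell-like cells.

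Cholecystokinin, a peptide of gut and brain encoded by Cck (chr9:121489824-121495694, minus strand), had its highest level by class in melanocyte-like cells, followed by RPE-like cells. In melanocyte-like cells it gave 149 UMIs in 52 control cells, or 206 CPM (174 to 242), and 312 UMIs in 30 mutant cells, or 732 CPM (653 to 818). A UMI was present in 15 control cells, 28.8% (17.1 to 43.1), and in 12 mutant cells, 40.0% (22.7 to 59.4). Mutant over control, this was a log2 ratio of 1.83 (1.55 to 2.12). These levels came from a handful of cells. The 5 richest held 55, 21, 15, 13 and 12 UMIs in the control and 96, 84, 34, 31 and 20 in the mutant, which made 77.9% and 84.9% of the class. Without them in each library the log2 ratio was 1.39, and among cells that had Xist but lacked Y-linked UMIs it was 0.77. The shares of cells did not differ beyond counting error.

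The identity of these cells was checked with their markers. Melanocytes arise from the neural crest, and the study used Pax3 to set them apart from the RPE. Kit, Ednrb and Sox10 are melanocyte markers too, but the study found Sox10 in control RPE cells as well. Pax3, Kit, Ednrb and Sox10 were at 279, 195, 1441 and 325 CPM in the control class. In the mutant class they were at 286, 169, 1481 and 352 CPM. Summed per cell, their median was 21.7 per 10000 UMIs in Cck-positive and 24.1 in other control cells, and 26.4 and 24.9 in the mutant. The median of 6 RPE genes, Rpe65, Rlbp1, Rgr, Slc16a8, Ttr and Rdh5, was 0 in each of these sets. Of the control cells, the richest in Cck stood apart, with melanocyte markers at 58.2 per 10000 UMIs against a class median of 217 and neurogenic markers at 33.9 against 1.01. The richest mutant cell had 276 against a class median of 272.

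RPE-like cells had less Cck, but in a larger number of cells. The class gave 139 UMIs in 371 control cells, or 36.9 CPM (31.0 to 43.6), and 66 UMIs in 205 mutant cells, or 35.0 CPM (27.1 to 44.5). Their log2 ratio was -0.08 (-0.52 to 0.36). Of the mutant UMIs 23 lay in 1 cell, and without the 5 richest cells of each library the log2 ratio was -0.96. Among the RPE markers, Rpe65 had 0 UMIs in both libraries, Rlbp1 was at 343 and 230 CPM and Ttr at 2959 and 3209 CPM. A Cck UMI was seen in 18.1% (14.3 to 22.4) of control and 12.7% (8.45 to 18.0) of mutant cells. Depth moved with this share. The median Cck-positive RPE-like cell was deep, at 19236 UMIs (control) and 18353 (mutant), whereas the other cells of the class had medians of 3398 and 2761. After thinning the shares were 6.56% (3.79 to 10.4) of 244 control cells and 3.28% (0.90 to 8.18) of 122 mutant cells, with overlapping intervals, against 0 of 483 and 0 of 424 erythroid-like cells, which allow up to 0.62% and 0.71%. Of the other members, Sst had 0 and 3 UMIs in RPE-like cells and 0 and 1 in melanocyte-like cells, and Sstr2 had 9 and 3 in RPE-like cells and 0 and 7 in melanocyte-like cells, the 7 in 1 cell.

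Cck was also counted in the neurogenic class, where it was lower in the mutant. This class held 36.6% of all control and 18.3% of all mutant Cck UMIs. Melanocyte-like cells held 22.1% and 53.0%, and RPE-like cells 20.6% and 11.2%. The neurogenic class gave 247 UMIs in the control, or 25.0 CPM (21.9 to 28.3), and 108 in the mutant, or 8.15 CPM (6.69 to 9.84). The log2 ratio was -1.61 (-1.95 to -1.28), and 4.24% (3.1 to 5.65) of control and 1.96% (1.29 to 2.83) of mutant cells had a UMI. The 5 richest cells held 53.0% and 56.5% of the UMIs. The cluster led by Neurog2, Gadd45g and Cck had 159 CPM (138 to 182) in 128 control cells and 48.9 CPM (39.7 to 59.6) in 209 mutant cells, with a UMI in 18.8% (12.4 to 26.6) and 9.09% (5.56 to 13.8). In that cluster the control therefore had more Cck per UMI counted, whereas the intervals of the shares of cells overlapped. Of the 22 Cck-positive control cells after thinning, 90.9% had Neurod1 against 42.9% of the others, and 68.2% had Atoh7 against 94.6%. Gal and Cck were seen together in 0 control and 2 mutant neurogenic cells, of 22 and 15 with Cck.

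**Figure D4:**
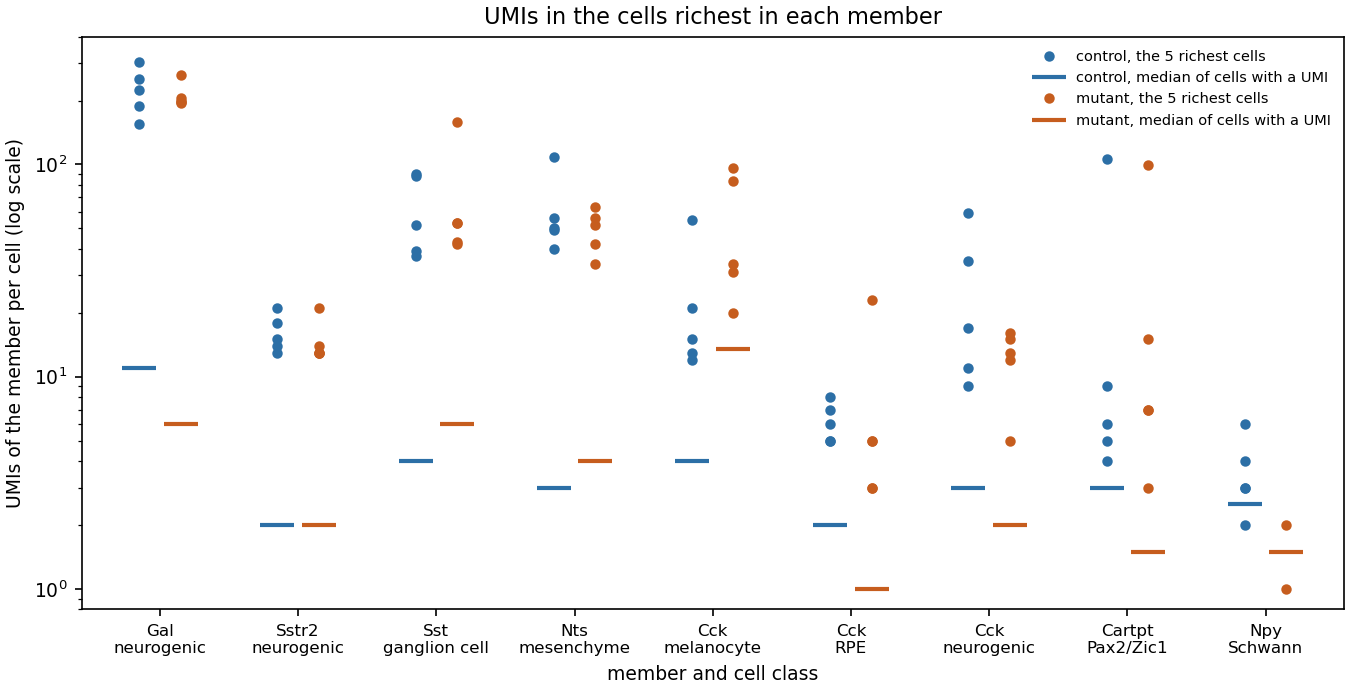
UMIs of a member (log axis) in each of its 5 richest cells in the class named, with bars for the median of the cells that have a UMI, for the control and mutant libraries. The Gal and Sstr2 counts decline slowly from cell to cell, whereas the Cck counts of melanocyte-like cells and the Cartpt counts of the Pax2/Zic1 cluster rest on 1 or a few cells.

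Neurotensin, encoded by Nts (chr10:102481756-102490486, minus strand), was a gene of the tissue around the eye. Periocular mesenchyme-like cells, the mostly neural crest-derived tissue of sclera, choroid and muscle attachments, gave 1344 UMIs in 2469 control cells, or 38.8 CPM (36.7 to 40.9), and 941 UMIs in 1776 mutant cells, or 36.2 CPM (34.0 to 38.6). The log2 ratio was -0.10 (-0.22 to 0.02), and 6.72% and 6.93% of cells had a UMI. The libraries did not differ beyond counting error, and the class held 80.0% and 77.6% of all Nts UMIs. After thinning, 3.58% and 3.52% of cells had Nts, against 1 of 483 and 0 of 424 erythroid-like cells.

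Nts followed the type of mesenchyme. The cluster led by Tagln, Akap12 and Cxcl12 had 80.3 CPM (75.2 to 85.7) in the control and 86.7 CPM (80.5 to 93.1) in the mutant. The cluster led by Mfap5, Osr2 and S100a6 had 34.2 and 35.2 CPM. In the cluster led by Matn4 and Kera it was at 0.58 and 0.22 CPM, on 6 and 2 UMIs. The tendon-type cluster led by Scx and Tnmd, the first of which is a tendon transcription factor, had 31.0 CPM in control and 4.6 CPM in mutant cells, but 5 cells held 91.0% of its 133 control UMIs. Nts-positive mesenchyme-like cells had Tfap2b in 2.27% against 28.3% of the others in the control and 4.84% against 26.9% in the mutant. Ebf3 was in 25.0% against 7.34% and in 16.1% against 7.42%.

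Pericyte-like cells gave 200 Nts UMIs in 299 control cells, or 32.6 CPM (28.2 to 37.4), and 205 UMIs in 210 mutant cells, or 49.6 CPM (43.0 to 56.8). Of these, 77.0% and 80.0% lay in the 5 richest cells. The log2 ratio was 0.61 (0.32 to 0.89). At a finer clustering it was -0.51, but over other cells: the cluster led by Rgs5 and Mgp was then unnamed, and the one named pericyte-like was led by Nts and Vcan, with nearly equal pericyte and mesenchyme scores. With classes assigned cell by cell it was -0.65, and among cells that had Xist but lacked Y-linked UMIs it was -2.05. All 6 pericyte markers were higher in the mutant class too, from Pdgfrb at 120 and 169 CPM to Rgs5 at 101 and 227 CPM, and their part in the Nts ratio was not tested. The label of this class is weak: its median cell had pericyte markers at 1.51 and 2.11 per 10000 UMIs and mesenchyme markers at 71.8 and 71.4. In RPE-like cells the control had 38 Nts UMIs, all in 2 cells, of which the richer had mesenchyme markers at 55.3 per 10000 UMIs against a class median of 0. The mutant had 0 UMIs in 205 cells, which allows up to 3. Melanocyte-like cells had 13 Nts UMIs in 1 control cell and 0 in the mutant.

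Cartpt (chr13:99898489-99901091, minus strand), which encodes the CART peptide, was the member with the narrowest pattern. Neurogenic, photoreceptor precursor-like and melanocyte-like cells had 0 UMIs in both libraries. RPE-like cells had 1 and 3 UMIs. Retinal progenitor-like cells had 0 in control and 27 in mutant cells, of which 25 lay in 1 cell. Against this, an unnamed cluster of 57 control and 54 mutant cells gave 144 UMIs, or 239 CPM (201 to 281), in the control and 139 UMIs, or 209 CPM (176 to 247), in the mutant. It held 94.7% and 79.4% of all Cartpt UMIs in under 1% of the cells. The log2 ratio was -0.19 (-0.54 to 0.16), and 19.3% (10.1 to 31.9) and 22.2% (12 to 35.6) of its cells had a UMI. That ratio depended on few cells, at -0.97 without the 5 richest cells of each library and -1.75 among cells that had Xist but lacked Y-linked UMIs.

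Within this cluster 1 cell in each library held most of the Cartpt, with 106 of 144 UMIs in the control and 99 of 139 in the mutant. Its other genes were spread over many cells. Pax2, a factor of the optic stalk and disc, was at 179 and 203 CPM and present in 47.4% and 50% of cells. Zic1 was at 436 and 544 CPM, Wnt8b at 113 and 102 CPM, and Vax1, a factor of the ventral optic stalk, at 61.3 and 52.7 CPM. Of the glial genes, Gfap had 0 UMIs in both libraries and Olig2 had 2 and 4. Its best score was for ciliary margin markers, but its leading genes went against that name, and it stayed unnamed.

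Npy (chr6:49822710-49829507, plus strand), which encodes neuropeptide Y, was low throughout. Ganglion cell-like cells had 0 UMIs in 415 control and 521 mutant cells, and neurogenic progenitor-like cells had 2 in each library. Schwann cell precursor-like cells, the glial precursors that line nerves, gave 21 UMIs in 39 control cells, or 33.0 CPM (20.4 to 50.4), and 3 UMIs in 38 mutant cells, or 4.46 CPM (0.92 to 13.0). On so few UMIs the log2 ratio was -2.89 (-5.27 to -1.14). The control UMIs came from 8 cells, the mutant ones from 2, and the shares of 20.5% (9.30 to 36.5) and 5.26% (0.64 to 17.7) overlapped in their intervals. Of the genes of autonomic neurons, which use neuropeptide Y, Dbh had 1 control and 3 mutant UMIs in this class, Prph had 1 and 1, and Th, Phox2a and Hand2 had 0. Epithelium-like cells had 6 and 29 UMIs, or 4.09 and 15.3 CPM. Periocular mesenchyme-like cells had 127 and 95 UMIs, or 3.66 CPM in each, with 41 of the control UMIs in 1 cell. In the pigmented classes Npy had 1 UMI in all, in a control RPE-like cell.

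**Figure D5:**
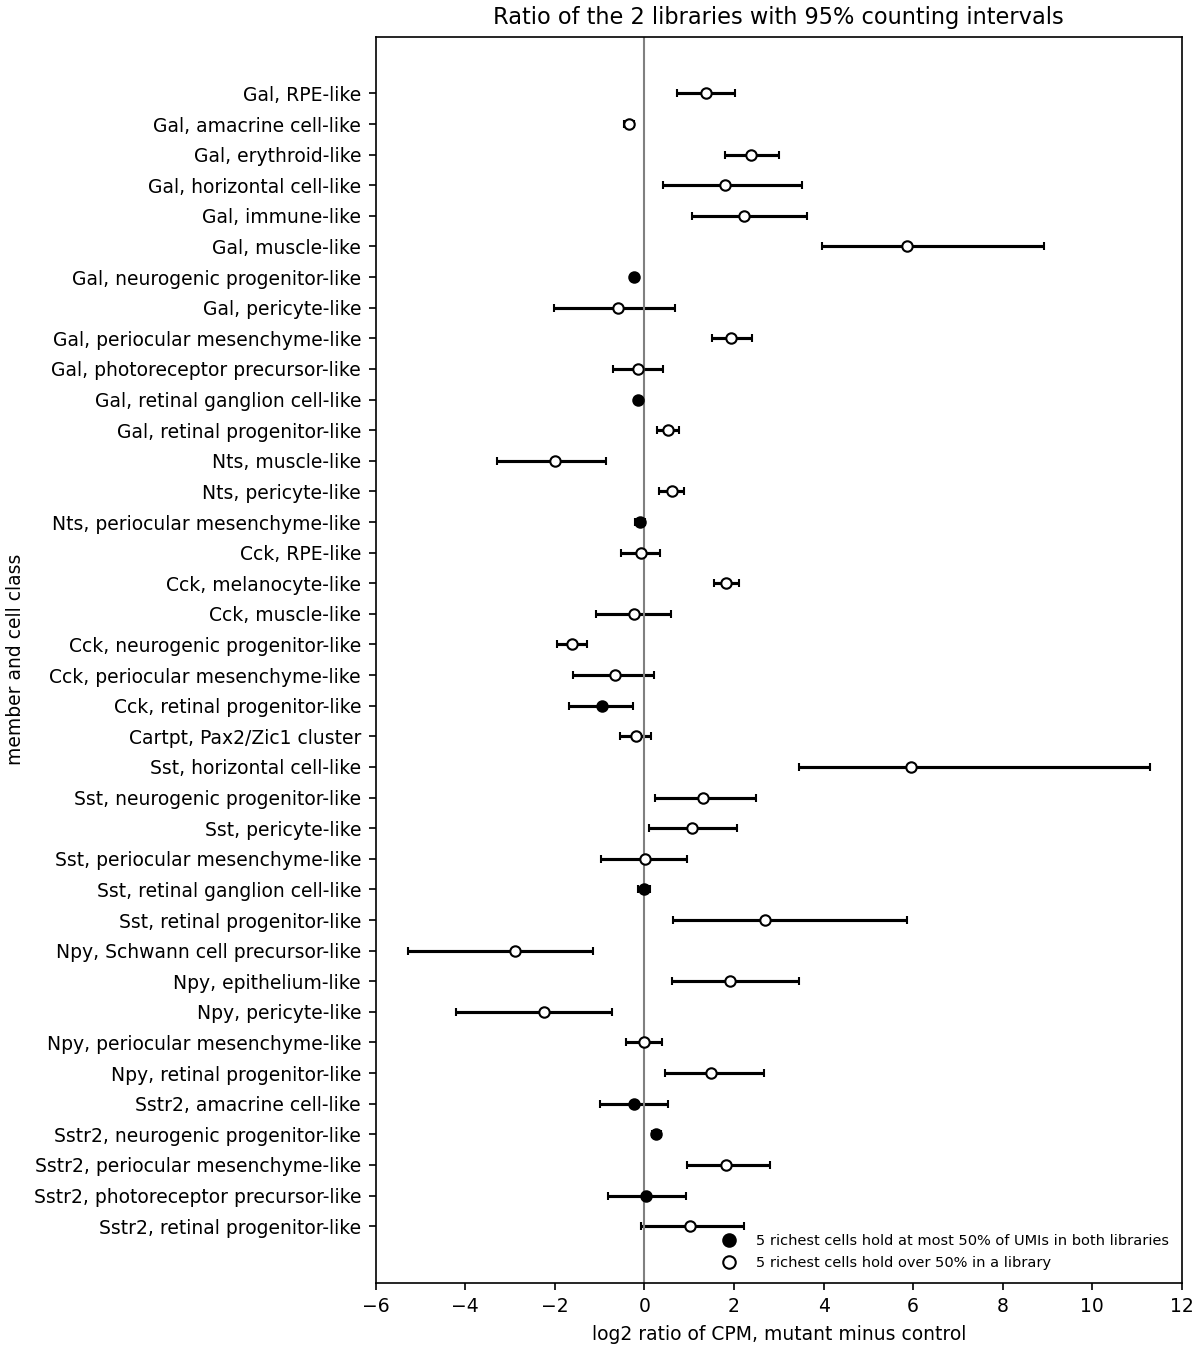
Log2 ratio of CPM, mutant minus control, for each member and class with a total of at least 20 UMIs and some in both libraries, with exact 95% intervals for counting error. Filled points, in which the 5 richest cells hold at most 50% of the UMIs in both libraries, lie between -0.24 and 0.27 apart from Cck in retinal progenitor-like cells at -0.95, and the points farthest from 0 are open, such as Sst in horizontal cell-like cells at 5.96 and Npy in Schwann cell precursor-like cells at -2.89.

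For the comparison of the libraries, a member was counted as changed past 1.5-fold in either direction, among genes with a total of 20 or more UMIs in that class. In neurogenic progenitor-like cells 2 of 4 measured members were past it, Cck downward and Sst upward on 10 and 33 UMIs, beside 6.25% of all genes measured there. Retinal progenitor-like cells, the dividing cells of the retina, had 5 of 6 past it (5.5% of all genes), with Cartpt, Sst, Npy and Sstr2 higher in the mutant and Cck lower. These levels were all under 2 CPM, the mutant Cartpt UMIs lay almost wholly in 1 cell, and Gal was not past it at 8.34 and 12 CPM. None of the 2 members measured was past it in ganglion cell-like cells (7.37% of all genes), amacrine cell-like cells (9.64%) or photoreceptor precursor-like cells (9.85%). In horizontal cell-like cells both measured members were (14.2%), each through 1 or a few cells. In RPE-like cells it was 2 of 3 (14.2%), Gal mostly through 1 mutant cell and Nts through 2 control cells. In melanocyte-like cells it was Cck alone of 1 measured (22.3%), in Schwann cell precursor-like cells Npy alone of 1 (20.6%), and in pericyte-like cells 4 of 4 (9.35%), of which 2 were higher and 2 lower. In periocular mesenchyme-like cells it was 3 of 6 (8.99%), with Gal and Sstr2 higher and Cck lower, and in epithelium-like cells Npy alone of 1 (17.5%). With so few members per class these counts describe the members and were not tested.

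The genes of the machinery that makes peptides were near the control level in the neurogenic and ganglion cell-like classes of the mutant, but not in every class. Of 14 genes for processing and granule proteins, 11 were measured in the neurogenic class. Of these 0 were past 1.5-fold upward and 1 downward (Pcsk2, a prohormone convertase, on 48 and 39 UMIs), beside 6.25% of all genes. Their median log2 ratio was 0.08 beside -0.02 over all genes. In ganglion cell-like cells 12 were measured and 0 were past 1.5-fold (7.37% of all genes), with a median of 0.05 beside -0.02. In mesenchyme-like cells 6 of 12 measured were past 1.5-fold upward and 0 downward, beside 8.99% of all genes, with a median of 0.54 beside -0.01. All 6 were low there, such as Scg5 at 1.96 and 4.58 CPM. Pericyte-like cells had 2 of 7 past it upward (9.35% of all genes), Pcsk1n and Scg5, each on under 20 UMIs per library, with a median of 0.41 beside -0.01. In photoreceptor precursor-like cells it was 2 of 11 (9.85%), Pam upward and Pcsk2 downward, and in RPE-like cells 0 of 7 (14.2%). Gal and Sstr2 were higher in these mutant mesenchyme-like cells too, and the part of free RNA or doublets in either was not tested. Cpe, the carboxypeptidase that trims cut peptides, was at 255 and 266 CPM in ganglion cell-like cells. Pcsk1n, an inhibitor of the convertase Pcsk1, was at 430 and 397 CPM in horizontal cell-like cells, and Scg5, the chaperone of Pcsk2, at 221 and 228 CPM there. Pam, the enzyme that amidates peptides, was highest in Schwann cell precursor-like cells, at 92.6 and 58.0 CPM. These genes were counted in neurons with little Gal as well as in those with much.

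Other peptide genes were examined through a list of 47, of which 20 had at least 100 UMIs and 5 had none. The symbol Kiss1 occurred more than once among the features, and it was not counted. In the neurogenic class 9 were measured, with 0 past 1.5-fold upward and 1 downward (Nppc, on 17 and 13 UMIs), beside 6.25% of all genes. Their median log2 ratio was 0.24 beside -0.02 over all genes. Pcsk2, Nppc, the processing genes of other classes and the RPE-like genes below were named because their counts were few, after the values had been seen. In ganglion cell-like cells 8 were measured, 0 were past 1.5-fold (7.37% of all genes) and the median was -0.04 beside -0.02. Penk, the enkephalin precursor, was at 149 and 176 CPM in the neurogenic class. Tac1, the substance P precursor, was at 40.7 and 33.6 CPM in mesenchyme-like cells. Pomc was at 62.3 and 72.7 CPM in amacrine cell-like cells, and Edn3, an endothelin that acts on melanocyte precursors, at 56.1 and 56.5 CPM in muscle-like cells. In mesenchyme-like cells 4 of 19 were past 1.5-fold upward and 0 downward (8.99% of all genes), with a median of 0.32 beside -0.01. Pericyte-like cells had 2 of 8 past it upward and 0 downward (9.35%), with a median of 0.32 beside -0.01. Retinal progenitor-like cells had 2 upward and 1 downward of 12 (5.5%), and amacrine cell-like cells 0 of 4 (9.64%). In RPE-like cells 5 were measured, of which 2 were past 1.5-fold upward (Tac1 and Gip) and 1 downward (Penk), beside 14.2% of all genes. Tac1 had 14 and 18 UMIs there, with 78.6% and 83.3% of them in 5 cells, and Penk had 68 and 20, with 55.9% and 95% in 5 cells. Gip, an incretin gene, had 72 UMIs there in the control, or 19.1 CPM, and 67 in the mutant, or 35.5 CPM, and had at most 1 UMI per library in each of the other named classes.

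Apart from Sort1, few receptors for the member peptides were counted. Of 17 genes besides Sstr2, 3 had at least 100 UMIs and 3 had none. Sort1, a sorting receptor that binds neurotensin, was widespread, with 6669 UMIs over all kept cells, and reached 124 CPM in control and 188 CPM in mutant melanocyte-like cells, a ratio of 1.51 (1.10 to 2.06). Npy1r was highest in mesenchyme-like cells, at 10.1 and 8.13 CPM, and Npy2r in epithelium-like cells, at 20.4 and 28.5 CPM. Ntsr1 reached 0.75 and 0.81 CPM in mesenchyme-like cells.

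The genes most like each member were found by Pearson's r of log2(CPM + 10) over 70 pairs of cluster and library, which share their libraries and depth, so r is a description. Gal was most like Dlx1 (0.87), Dlx2 (0.85) and Insm2 (0.84), and Sstr2 was most like Mybl1 (0.89), 9630028B13Rik (0.86) and Pkib (0.85). Sst was nearest to Rph3a (0.95), Slc10a4 (0.94) and Rab9b (0.93). Cck was nearest to Xrra1 (0.81), Slc45a2 (0.81), a melanosome transporter gene, and Trim63 (0.80). Nts was nearest to Tbx18 (0.88), Kcns3 (0.86) and Eln (0.86), the elastin gene. Cartpt was nearest to Pax2 (0.99), AC154683.1 (0.98) and Vax1 (0.97). Among the genes most like Npy were Fndc1 (0.76) and Fstl3 (0.73). Among the members, Gal and Sstr2 had an r of 0.63 and Gal and Sst of 0.44.

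Cyclic AMP drives several peptide genes through the CRE, a palindrome of the letters TGACGTCA, which was therefore searched in the 250 bases before each start in the RefSeq promoter table of GRCm38.p6. The search was chosen after the sequences had been read. Since a palindrome reads the same on both strands, 1 search covered both. It was found in 3 of the 7 members, and in 508 of 32851 promoters in the table (1.55%). The 30 bases around it are shown because they are where Sst and Sstr2, a ligand and its receptor, hold the same 8 letters, with the CRE in capitals.
Cartpt, chr13:99900777-99900806, minus strand: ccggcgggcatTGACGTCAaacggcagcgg
Sst, chr16:23890874-23890903, minus strand: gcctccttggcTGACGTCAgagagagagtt
Sstr2, chr11:113619258-113619287, plus strand: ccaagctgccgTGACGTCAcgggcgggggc
Counted from the RefSeq start, the CRE began 112 bases upstream in Cartpt, 48 in Sst and 58 in Sstr2. For Cartpt and Sst that start lies inside the span of the gene given above, and the 30 bases shown overlap an annotated exon of the gene itself, so the Sstr2 window alone is upstream of the whole gene. The shorter letters TGACG, which lie within the CRE, were in 5 members and 17.8% of promoters. CAGATG, an E-box, was in 2 members (Cck and Cartpt) and 14.4% of promoters, and TATAAA in 0 members and 12.4%. A match is a description of these letters, not a site in use. The 3 genes with a CRE were highest in different cells, namely the Pax2/Zic1 cluster, ganglion cell-like cells and neurogenic progenitor-like cells.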

How the data were processed

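Eye cups of 2 genotypes were profiled by 10x Genomics 3′ single-cell RNA-seq at e15.5, with 1 library of 3 pooled eye cups per genotype, grouped by the genotype in the labels. The deposited values are unnormalized UMI counts for 31053 genes in each barcode, which the authors made with Cell Ranger 7.1.0 on mm10 per the submitters' processing notes. The matrix headers name version 3.1.0. The study's cell numbers at this age equal the 13017 and 13880 barcodes in the files, so its filters had not been applied. Seurat 4.1.1 was named for later steps, and the study's own cell classes and its other ages were not analysed here.

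Barcodes with under 200 genes or over 15% mitochondrial UMIs were left out. Scrublet in scanpy 1.11.5 marked 334 control and 0 mutant doublets at its automatic threshold, so barcodes with a score over 0.2 were removed in both libraries, 369 (3.09%) and 395 (3.03%). About 9.55% and 10.4% would be expected at such loading, so doublets remained. Both libraries were clustered together on 1970 variable genes without integration (30 components, 15 neighbours, Leiden resolution 1.0). Members, genes of the peptide, processing and receptor lists, Myrf, Xist, Tsix and Y-linked, mitochondrial and globin genes were kept out. The other naming markers were not kept out, so they could shape the clusters that they named. Of 36 clusters, 30 were named from marker lists, with score limits chosen once the data had been seen. The study's upper limit of 2000 UMIs would remove 81.2% of control and 82.2% of mutant cells and was tried as an alternative.

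UMIs were summed per class and library and divided by the class total. Sums carry exact Poisson intervals, ratios exact conditional binomial intervals and shares of cells exact Clopper-Pearson intervals, at 95%. Classes needed 30 cells in each library, and a count of 0 was set to a floor of 3 UMIs per library. Alternatives covered doublets, depth and mitochondrial limits, clustering, sex-linked UMIs, the richest cells and the mean over cells. The code for ratios was run on simulated Poisson counts with known folds. These counts had no clumping in single cells, so the run could not check the intervals of members with clumped UMIs. The members and lists were chosen with earlier results of these data known. Named were all 7 members, list genes with at least 100 UMIs past 1.5-fold in the leading class of a member, the 4 list genes with most UMIs, the 3 genes most like each member, and Myrf. One gene most like a member and 1 marker gene are not reported here.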

Additional observations from a re-analysis of the deposited data

Results flagged for a closer look

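Cck differed between libraries in opposite directions in 2 classes, with a log2 ratio of 1.83 in melanocyte-like cells and of -1.61 in neurogenic progenitor-like cells. The difference between the classes was not tested. Outside the member genes, Y-linked UMIs were present in 0.0259% of control and 41.8% of mutant cells. An unnamed cluster of shallow cells led by Ppp1r14a and Tubb3, which entered no comparison, had Gal at 356 CPM in 278 control cells and at 416 CPM in 325 mutant cells, with a UMI in 17.3% and 17.8% of them, above the 3.61 and 18.9 CPM of erythroid-like cells.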

How the results depend on the processing

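No paired analysis was possible because each genotype had 1 library. Of the values recomputed for the leading class of each member and for the lists, 67 moved by less than the limit set for them (counting error for ratios and shares), 19 moved by more and 5 that had an interval clear of 0 changed sign, and the cause was not tested. With values near 0 counted as well, 19 changed sign. For Gal in neurogenic progenitor-like cells the log2 ratio was 0.013 with doublets kept, where the Gal-richest cluster was named ganglion cell-like and left this class, -0.16 without cells over 20000 UMIs, -0.18 without cells over 2000 UMIs, -0.43 with classes assigned cell by cell and -0.18 as a mean over cells. For Sstr2 there it was 0.15 with doublets kept, -0.16 without cells over 2000 UMIs and 0.37 in cells with Xist and without Y-linked UMIs. For Sst in ganglion cell-like cells it was 0.19 with doublets kept, 0.13 without cells over 20000 UMIs, -0.17 in cells with Xist and without Y-linked UMIs and 0.19 as a mean over cells. For Cck in melanocyte-like cells it was 2.14 without cells over 20000 UMIs, 1.18 cell by cell, 0.77 in cells with Xist and without Y-linked UMIs and 1.39 without the 5 richest cells. For Nts in pericyte-like cells it was 0.92 at a mitochondrial limit of 5%, -0.51 at resolution 2.0, where another cluster bore the name, -0.65 cell by cell and -2.05 in cells with Xist and without Y-linked UMIs. Among other values, Gal changed sign in ganglion cell-like cells without cells over 20000 UMIs (0.0053) and in amacrine cell-like cells cell by cell (0.50) and as a mean over cells (0.023). Cck in neurogenic progenitor-like cells stayed negative in 8 alternatives, from -3.19 to -1.11, and Npy in Schwann cell precursor-like cells in 6, from -3.52 to -2.48. Of the 7 members, 5 kept their leading class with doublets kept (not Gal and Nts), 4 without cells over 20000 UMIs, 2 without cells over 2000 UMIs and 3 in cells with Xist and without Y-linked UMIs, where melanocyte-like and Schwann cell precursor-like cells fell under 30 in a library. The median of the ligand list in ganglion cell-like cells was 0.20 in cells with Xist and without Y-linked UMIs. The 30 to 52 cells per library in the melanocyte-like and Schwann cell precursor-like classes limit what can be read from Cck and Npy.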
